A study of Mus musculus with 6 samples.

Results

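Hedgehog signalling was examined in mouse sciatic nerve through 9 of its core genes: the ligands Dhh, Shh and Ihh, the receptors Ptch1 and Smo, the ligand-binding antagonist Hhip, and the transcription factors Gli1, Gli2 and Gli3. All probes that the platform annotation assigns to these symbols were taken, 17 of the 45281 probes on the array. RNA of whole nerves of mice at postnatal day 14 was measured on Mouse WG-6 version 2 arrays, which carry long probes on beads. The 3 mutant arrays hold nerves labelled P0 Cre Dicer F or N. P0 is the main protein of the myelin of peripheral nerve and its promoter, active in the Schwann cell lineage, drives the Cre recombinase that acts on Dicer. What F or N stands for is not explained by the labels. The 3 control arrays hold nerves of control littermates, and no label says whether those carry Cre or a Dicer allele. Both sexes are named for every sample. The labels do not say if 1 animal or several went onto an array. The p-values therefore refer to the spread among these 6 arrays, part of which may be technical.

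Hedgehog ligands are secreted lipid-modified proteins. Without ligand, Ptch1 holds the membrane protein Smo inactive. Ligand binding to Ptch1 frees Smo, which acts in the primary cilium to turn Gli2 and Gli3 from repressors or inactive forms into activators, and Gli1, Ptch1 and Hhip are then transcribed as common targets. In peripheral nerve the ligand is Dhh, made by Schwann cells, and its receptor Ptch1 is found on the surrounding mesenchymal cells, which build the perineurium and the fibroblast compartments of the nerve. Dicer, the enzyme named in the genotype, cuts microRNA precursors to their mature length. Among the mouse microRNAs with reported targets in this pathway, miR-125b and miR-326 are known to act on Smo, and miR-324-5p on Smo and Gli1, from work in cerebellar progenitors. Their mature sequences, from RefSeq (GRCm38.p6), are shown because Dicer makes them and because Smo was called lower in mutant nerves. Capitals mark the seed, bases 2 to 8, which differs between the 3. The arrays do not measure mature microRNAs, and whether these 3 bear on the values of Smo was not tested.
mmu-miR-125b-5p: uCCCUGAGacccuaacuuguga
mmu-miR-326-3p: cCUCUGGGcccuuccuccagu
mmu-miR-324-5p: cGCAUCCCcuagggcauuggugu

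The deposited signals run from 7.96 to 15.91, with a median of 8.24 over all probes. They are log2 values or close to such, and whether plain log2 was used is not settled. Every difference is mutant minus control on that scale. The test covers the 18420 brightest probes by their mean over all 6 arrays, and a probe is called at a limma adjusted p under 0.05. Of these probes 35.8% were called, so a call by itself is common in these data. Correlations between arrays were 0.992 to 0.995 among controls, 0.973 to 0.993 among mutants and 0.912 to 0.942 across the groups. Sox10, which defines the Schwann cell lineage, was bright in both groups, at 13.94 ± 0.023 in controls and 13.98 ± 0.12 in mutants (SD, n = 3 each). Dicer1 had 3 probes. The brightest differed by -0.02 (limma adjusted p = 0.832), the next by -0.20 (adjusted p = 0.0458, from 0.0162 to 0.149 over 11 alternatives and called in 4 of them), and the dimmest, left out by the filter, by 0.01. Where these probes lie relative to the deleted part is not known, so they do not check the labels. The 7 skeletal muscle markers had a mean signal of 11.64 to 12.96 on the control arrays and of 9.60 to 11.48 on the mutant arrays. All 7 were lower in mutants, with a median difference of -1.32, but only Myh1 was called, at -0.89, while with the replicate number as a block 4 of them were called lower. The part of muscle tissue in the results below was not tested.

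Of the 9 genes, Shh was higher in mutant nerves and Smo was lower. Dhh, the ligand of the nerve, and the pathway readouts Ptch1, Gli1 and Hhip were not called, nor were Ihh, Gli2 and Gli3. The brightness filter kept 9 of the 17 probes, covering 6 genes. Ihh, Hhip and Gli1 had no kept probe. Counting each gene by its brightest kept probe, 1 of the 6 was higher and 1 lower, or 33.3%, against 39.6% of all 10273 genes tested in this way (22% higher and 17.6% lower). The median difference of the 6 was 0.02, against 0.01 over all genes tested. By probe, 1 of the 9 kept was called higher and 2 lower, where 19.9% and 15.9% of all kept probes were. In the fit over all 45281 probes, 2 of the 17 member probes were called higher and 1 lower, where 7.95% and 6.15% of all probes were. The groups did not overlap in 5 of the 9 kept probes, or 55.6%, against 52.1% of all kept probes, and in 1 of the 8 left out, against 15.5% of all probes left out (30.4% over the whole array). The shares among kept probes and genes include the brighter Shh probe, which passed the filter only through the mutant arrays. Its call and its lack of overlap are therefore not independent of the filter. In bulk nerve, fewer cells of a type and less RNA per cell cannot be told apart.

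**Figure D1:**
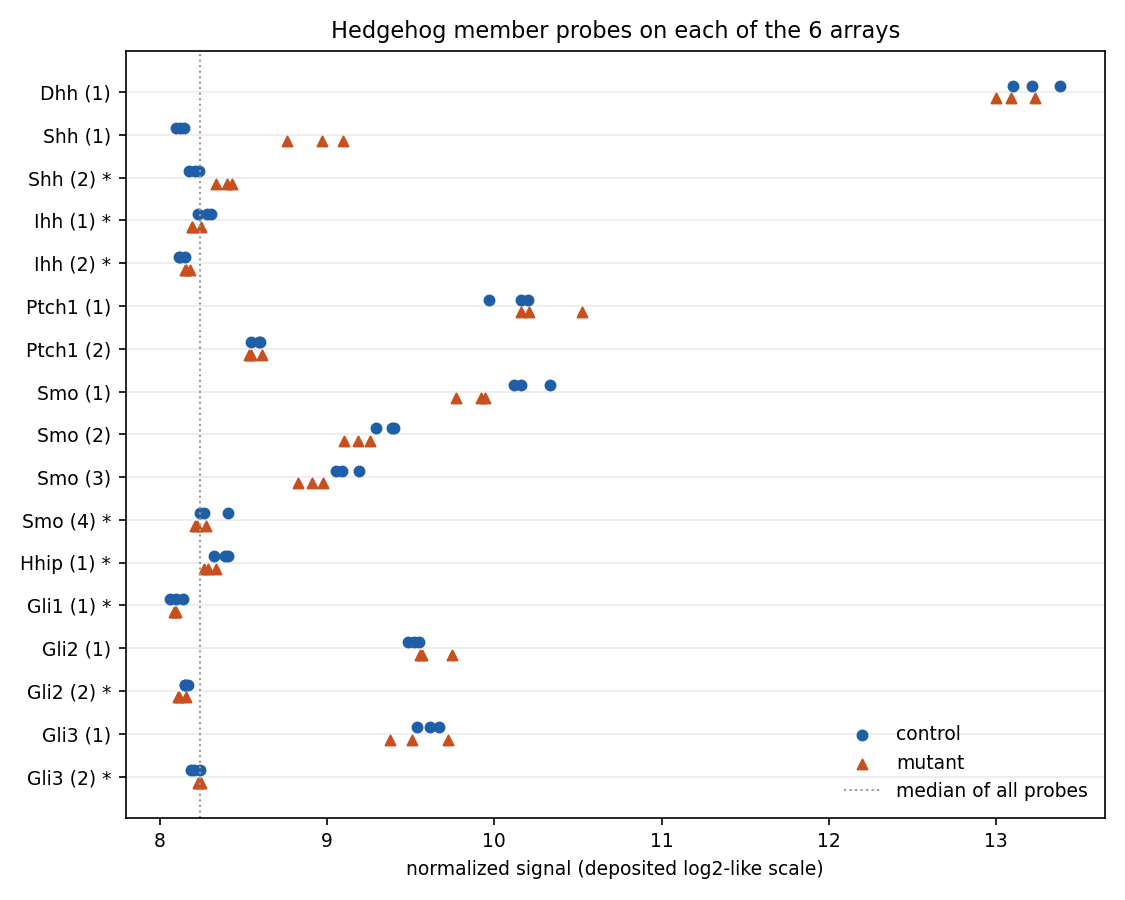
Normalized signal (x axis, deposited log2-like scale) of every probe of the 9 Hedgehog genes on each of the 3 control arrays (circles) and 3 mutant arrays (triangles); numbers in brackets order the probes of a gene by brightness, and an asterisk marks a probe left out by the brightness filter. Mutant arrays lie above all controls in both Shh probes and below all controls in the 3 brighter Smo probes, while the groups overlap in Dhh and in both Ptch1 probes.

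Dhh, the ligand that Schwann cells send to the nerve sheaths, was read by 1 probe (ILMN_2595664). The control arrays had 13.21, 13.10 and 13.38 and the mutant arrays 13.23, 13.09 and 13.00. The groups overlapped, with control replicate 3 highest and mutant replicate 3 lowest. The difference was -0.13 (SE 0.093, 95% interval -0.35 to 0.10, limma adjusted p = 0.334), and Dhh was not called in any of 12 alternative fits (adjusted p from 0.118 to 0.706). By the root mean square difference of the 6 values, after subtracting each gene's own mean, the genes most like Dhh were Ddhd1 (0.0167), Nipsnap3b (0.0268) and Abraxas2 (0.0349), where the same measure of the spread of Dhh itself was 0.123. They are the closest of 10272 genes searched on only 6 values, and a link to Dhh was not tested.

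Shh, the ligand that patterns the neural tube and limb, was near the dim end of the scale in controls and higher in all mutant arrays. Its brighter probe (ILMN_2610013) had 8.14, 8.12 and 8.10 on the control arrays and 8.97, 8.76 and 9.10 on the mutant arrays. The control mean of 8.12 stood at percentile 22.7 of all probes and the mutant mean of 8.94 at percentile 76.4. The rise was 0.82 (SE 0.089, 95% interval 0.61 to 1.04, limma adjusted p = 7.06e-04). This probe passed the brightness filter through the mutant arrays, since by the control arrays alone it would have been left out. With all 45281 probes tested, of which 14.1% were called, the adjusted p was 0.00242. The call held in all 11 alternative fits that include the probe, with differences from 0.68 to 0.91 and adjusted p from 7.48e-05 to 0.00559.

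The dimmer Shh probe (ILMN_2802979), left out by the filter, had 8.21, 8.18 and 8.23 on the control arrays and 8.43, 8.33 and 8.40 on the mutant arrays. The groups did not overlap here either. In the fit over all probes it rose by 0.18 (SE 0.032, limma adjusted p = 0.0163). Both probes are annotated to the same Shh transcript. Ihh, the ligand of growing cartilage, was at or below 8.30 on every array in both of its probes, and in the fit over all probes neither was called (-0.06 and 0.03, limma adjusted p = 0.307 and 0.447).

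Smo, the membrane protein that carries the signal past Ptch1, was lower in mutant nerves. Its brightest probe (ILMN_2986978) had 10.12, 10.16 and 10.33 on the control arrays and 9.77, 9.92 and 9.94 on the mutant arrays. The mutant arrays all lay below the controls. The fall was 0.32 on the deposited scale (difference -0.32, SE 0.080, 95% interval -0.52 to -0.13, limma adjusted p = 0.0198). The call was lost without control replicate 2 (difference -0.35, adjusted p = 0.0508) or control replicate 3 (-0.26, 0.0571), and over all alternatives the adjusted p ran from 0.00581 to 0.0571.

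The remaining Smo probes pointed the same way with smaller differences. The probe of middle brightness (ILMN_2741614) had 9.29, 9.40 and 9.39 on the control arrays and 9.26, 9.10 and 9.18 on the mutant arrays, and was not called (-0.18, SE 0.063, limma adjusted p = 0.0655). The next (ILMN_2741611) had 9.05, 9.09 and 9.19 on the control arrays and 8.97, 8.83 and 8.91 on the mutant arrays, and was called at -0.21 (SE 0.064, adjusted p = 0.0429). This call did not hold with the replicate number as a block (0.0725) or with all probes tested (0.0536), nor when mutant replicate 2 or 3 or any 1 control was left out (0.0734 to 0.127). In these 3 probes the groups did not overlap. The dimmest probe, left out by the filter and annotated to a cDNA clone, overlapped between groups at -0.07 (adjusted p = 0.504).

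Ptch1, at once the receptor and a target of the pathway, had 10.20, 10.16 and 9.97 on the control arrays and 10.52, 10.21 and 10.16 on the mutant arrays in its brighter probe (ILMN_2460224). The groups overlapped, and mutant replicate 1 stood highest. The difference was 0.19 (SE 0.114, 95% interval -0.09 to 0.46, limma adjusted p = 0.25), and it was 0.07 without mutant replicate 1. The dimmer Ptch1 probe was at 8.58 ± 0.031 in controls and 8.56 ± 0.042 in mutants (adjusted p = 0.847). Of 10272 genes searched, those most like the brighter probe by the measure used for Dhh were Nrp1 (0.0329), Snapc3 (0.036) and Trim26 (0.0396), against 0.164 for the spread of Ptch1 itself. Hhip, which binds the ligands and keeps them from Ptch1, had 8.39, 8.41 and 8.32 on the control arrays and 8.34, 8.26 and 8.29 on the mutant arrays. In the fit over all probes it was not called (-0.08, SE 0.032, limma adjusted p = 0.222), with mutant replicate 1 above control replicate 3.

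**Figure D2:**
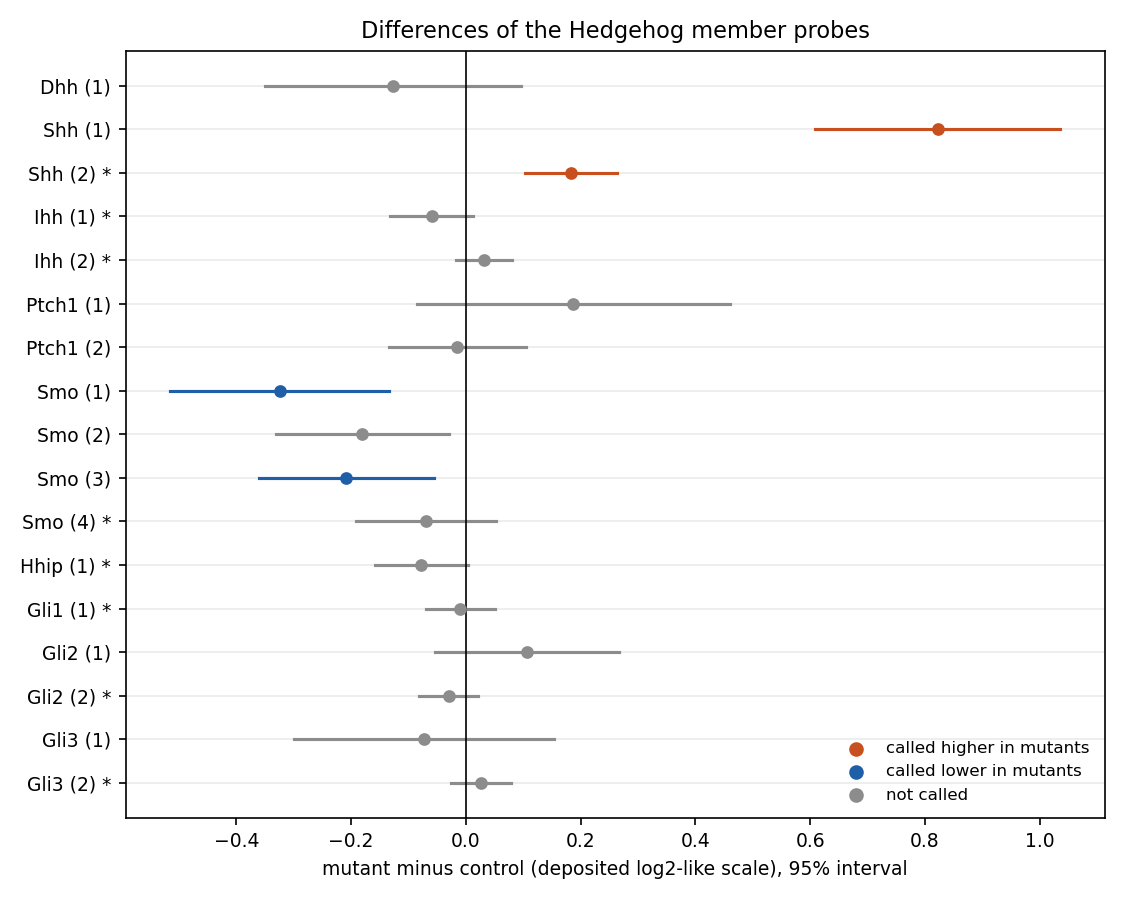
Difference, mutant minus control, of the same 17 probes (x axis, deposited log2-like scale), with bars for the 95% interval of the limma fit; probes with an asterisk were left out by the brightness filter and take their values from the fit over all probes. The Shh probes stand at 0.82 and 0.18, the 2 called Smo probes at -0.32 and -0.21, and every interval of Ptch1, Hhip and the Gli probes includes 0.

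The Gli factors carry the signal into the nucleus. Gli1, the member whose transcription most directly follows pathway activity, was at the floor, with 8.06, 8.10 and 8.14 on the control arrays and 8.10, 8.09 and 8.09 on the mutant arrays. Both group means lay at or below percentile 15.6 of all probes, so a change in Gli1 was not measurable with this probe (-0.01, limma adjusted p = 0.895 over all probes). The genes with values most like it of 10273 searched, BC004004 (0.00808), Slc26a6 (0.00825) and Mau2 (0.0118), were compared with a spread of Gli1 itself of only 0.0226. Gli2, the main activator, had 9.52, 9.55 and 9.49 on the control arrays and 9.56, 9.56 and 9.75 on the mutant arrays. All mutant arrays lay above the controls, but Gli2 was not called (0.11, SE 0.067, 95% interval -0.05 to 0.27, limma adjusted p = 0.267). Gli3, the main repressor, had 9.62, 9.67 and 9.54 on the control arrays and 9.72, 9.51 and 9.38 on the mutant arrays. The mutant values spread on both sides of the controls (-0.07, SE 0.095, adjusted p = 0.596). The dimmer Gli2 and Gli3 probes were left out by the filter, with all 4 group means between 8.13 and 8.24. In 12 alternative fits neither of the brighter probes was called.

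The other genes of the pathway were taken from a list of 37, of which 34 were on the array and 25 passed the filter. Among these, 5 rose, 6 fell and 14 were not called, or 44% called against 39.6% of all genes tested, with a median difference of -0.07. The largest differences were falls in genes that release the ligand and that relay the signal from Smo. Of 4 measured genes of ligand release and processing, Disp1 fell and Scube1 rose. Disp1, the transporter that frees lipid-modified ligand from the producing cell, had 11.02, 10.87 and 10.97 on the control arrays and 9.65, 9.46 and 9.76 on the mutant arrays. All mutant arrays lay more than a unit of the deposited scale below every control. The difference was -1.33 (SE 0.088, limma adjusted p = 8.35e-05), called in all 12 alternative fits (3.04e-06 to 0.00117). Scube1, a secreted protein of the family that helps ligand leave the membrane, had 8.370, 8.445 and 8.417 on the control arrays and 8.860, 8.996 and 9.037 on the mutant arrays, a rise of 0.55 (SE 0.063, adjusted p = 8.54e-04). Hhat, the acyltransferase that palmitoylates the ligands, was not called (0.05). Hhatl was not called either (-0.30), and its control replicate 2 stood apart at 9.14.

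Of 3 measured receptors and co-receptors, Gpc3, a glypican that binds Hedgehog ligands, rose from 13.90 ± 0.029 to 14.29 ± 0.14 (difference 0.39, SE 0.078, limma adjusted p = 0.00902), and its other kept probe was called at 0.59. The co-receptors Cdon and Boc, which help ligand reach Ptch1 and are turned down by active signalling, were at -0.07 (SE 0.086) and 0.01 (SE 0.056) and were not called (adjusted p = 0.558 and 0.875). With array weights Cdon was called lower, at -0.17 (adjusted p = 0.0379). Gas1, the remaining gene of that kind, was at the floor at 8.05 in controls and 8.09 in mutants.

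**Figure D3:**
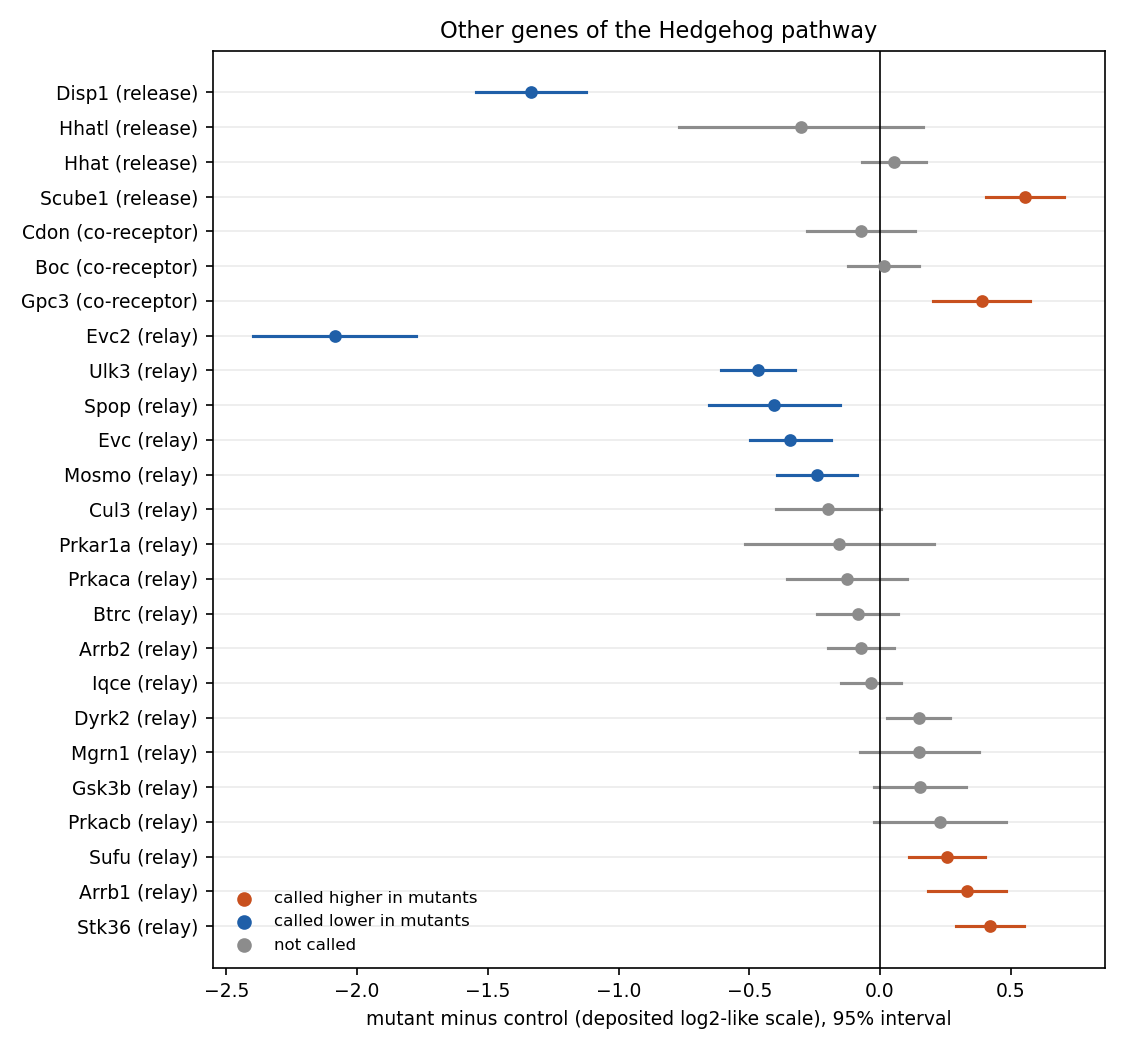
Difference, mutant minus control, of the 25 other Hedgehog pathway genes that passed the brightness filter (x axis, deposited log2-like scale), with bars for the 95% interval, grouped as ligand release, co-receptors and relay to Gli. Evc2 at -2.09 and Disp1 at -1.33 lie far to the left of the rest, whose differences run from -0.47 for Ulk3 to 0.55 for Scube1.

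Among 18 measured genes of the relay from Smo to Gli, 3 rose, 5 fell and 10 were not called, or 44.4% called against 39.6% of all genes tested. Evc2 had the largest difference. It encodes a ciliary protein that, with Evc, binds Smo near the base of the cilium and passes its signal on. Evc2 had 11.38, 11.40 and 11.85 on the control arrays and 9.39, 9.48 and 9.51 on the mutant arrays. The fall was the largest of the pathway list (-2.09, SE 0.13, limma adjusted p = 6.81e-05) and was called in all 12 alternative fits. Its partner Evc had 9.72, 9.68 and 9.74 on the control arrays and 9.40, 9.26 and 9.45 on the mutant arrays. Evc also fell (-0.34, SE 0.065, adjusted p = 0.00704), and no mutant array reached a control array in either gene. A second probe of each gene lay at the dim end, was left out by the filter and differed by -0.01 for Evc2 and -0.0040 for Evc.

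Evc and Evc2 lie next to each other on mouse chromosome 5 and are transcribed in opposite directions, away from each other. In the RefSeq table (GRCm38.p6) 0 genes lie in the gap between them, and the pseudogene Gm42935 lies inside Evc. Because they fell together, the 250 bases before each annotated start are printed here from RefSeq (GRCm38.p6), 5′ to 3′ on the strand of the gene. The Evc window is chr5:37336882-37337131 on the minus strand and the Evc2 window chr5:37338228-37338477 on the plus strand. Capitals mark the longest run of letters that the 2 windows share, 13 bases, which stands on opposite strands. It was looked for after the values were seen.
Evc: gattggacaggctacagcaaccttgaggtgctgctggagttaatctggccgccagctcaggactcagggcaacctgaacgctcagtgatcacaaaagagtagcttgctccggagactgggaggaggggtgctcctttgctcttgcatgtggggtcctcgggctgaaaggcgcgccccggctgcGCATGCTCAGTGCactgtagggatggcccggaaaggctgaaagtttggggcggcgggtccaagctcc
Evc2: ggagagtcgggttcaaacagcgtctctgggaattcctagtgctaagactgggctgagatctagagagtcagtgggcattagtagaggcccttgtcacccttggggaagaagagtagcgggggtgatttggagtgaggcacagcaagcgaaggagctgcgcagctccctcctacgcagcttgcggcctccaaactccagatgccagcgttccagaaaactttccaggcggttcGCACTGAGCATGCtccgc

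Counted from the start of each gene, the run lies at bases -67 to -55 for Evc and -18 to -6 for Evc2. On either strand it is found in 10 of 32851 promoter windows of 300 bases (0.0304%), those of Evc, Evc2 and 8 other genes. The run was picked as the longest shared by the Evc and Evc2 windows. How rarely it occurs over all windows therefore cannot test a link between these genes. Whether the run bears on the fall of either gene was not tested. The Gli consensus GACCACCCA, searched exactly on both strands, is found in 83 of the 32851 windows (0.253%). None of the 7 member genes with a window (Dhh, Ihh, Ptch1, Smo, Gli2, Gli3 and Hhip) holds it there, which says only that these letters are not in those windows. Shh and Gli1 have no entry in the table.

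Of the rest of the relay, Ulk3, a kinase that acts on Gli proteins, fell by 0.47 (SE 0.059, limma adjusted p = 0.00133). Spop, the adaptor that brings Gli proteins to degradation, was called at -0.40 (SE 0.105, adjusted p = 0.0246). The Spop call did not hold with all probes tested (0.0597), nor when mutant replicate 2 or 3 or any 1 control was left out (0.065 to 0.084). Stk36, the vertebrate relative of the fly Fused kinase, rose by 0.42 (SE 0.054, adjusted p = 0.00147). The remaining calls, named after their values were seen, were Mosmo, which lowers Smo at the cell surface, at -0.24, and Arrb1, an arrestin, at 0.33. The 2 dimmer kept Arrb1 probes were not called (0.16 and 0.12, limma adjusted p = 0.0576 and 0.248). Sufu, the inhibitor that holds Gli proteins in the cytoplasm, was called at 0.26 in the brightest of its 4 probes, while its 3 dim probes differed by 0.02 or less. The Mosmo call was lost without mutant replicate 2 or any single control (0.0622 to 0.0945) and the Sufu call without mutant replicate 2, control replicate 1 or control replicate 3 (0.057 to 0.0628). Cul3, the ubiquitin ligase scaffold that works with Spop, was not called (-0.20). The protein kinase A genes Prkaca (-0.13), Prkacb (0.23) and Prkar1a (-0.16) were not called either. Cul3 and Prkar1a were called lower with array weights and without mutant replicate 1.

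Genes reported as Gli targets in at least some tissue moved upward where they were called. Of 29 on the list, 27 were on the array and 17 passed the filter. Of these 9 rose, 0 fell and 8 were not called by limma, or 52.9% called against 39.6% of all genes tested, with a median of 0.30. The list was chosen with earlier results of these data known, so this share and its direction are not an independent test of Gli activity. At an unadjusted p under 0.05, 0 of the 17 were lower and 9 higher. Foxc2 was not called (-0.25), and was called lower with array weights or without mutant replicate 1. The 4 largest rises were at least 2-fold if the scale is log2. Sfrp1, a secreted Wnt antagonist, rose by 2.46 (SE 0.161, limma adjusted p = 8.13e-05), and the cyclin genes Ccnd1 and Ccnd2 by 1.87 (SE 0.058) and 1.83 (SE 0.149). Nrp2, a co-receptor of semaphorins, rose by 1.30 (SE 0.093). The other calls, named after their values were seen, were Bcl2 (0.56), Rab34 (0.51), Foxm1 (0.51), Cdk6 (0.36) and Osr2 (0.30). Of the 9 genes that rose, Ccnd1, Ccnd2, Foxm1 and Cdk6 act in the cell cycle and are known to be driven by many pathways.

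The targets in most general use as readouts were not among those called. Ptch1 was not called, Gli1 and Hhip were at the dim end and not called, and the Mycn probe was at 8.07 in controls and 8.09 in mutants. A second Osr2 probe was not called (0.11), nor were 2 further Rab34 probes (0.18 and 0.21) and 1 of 5 kept Bcl2 probes. Of the 2 dimmer kept Nrp2 probes, 1 was called at 0.27 and 1 was not called at 0.18 (limma adjusted p = 0.0504). Igf2, a growth factor gene and the brightest of the 17 (15.65 in controls), was not called (0.08).

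**Figure D4:**
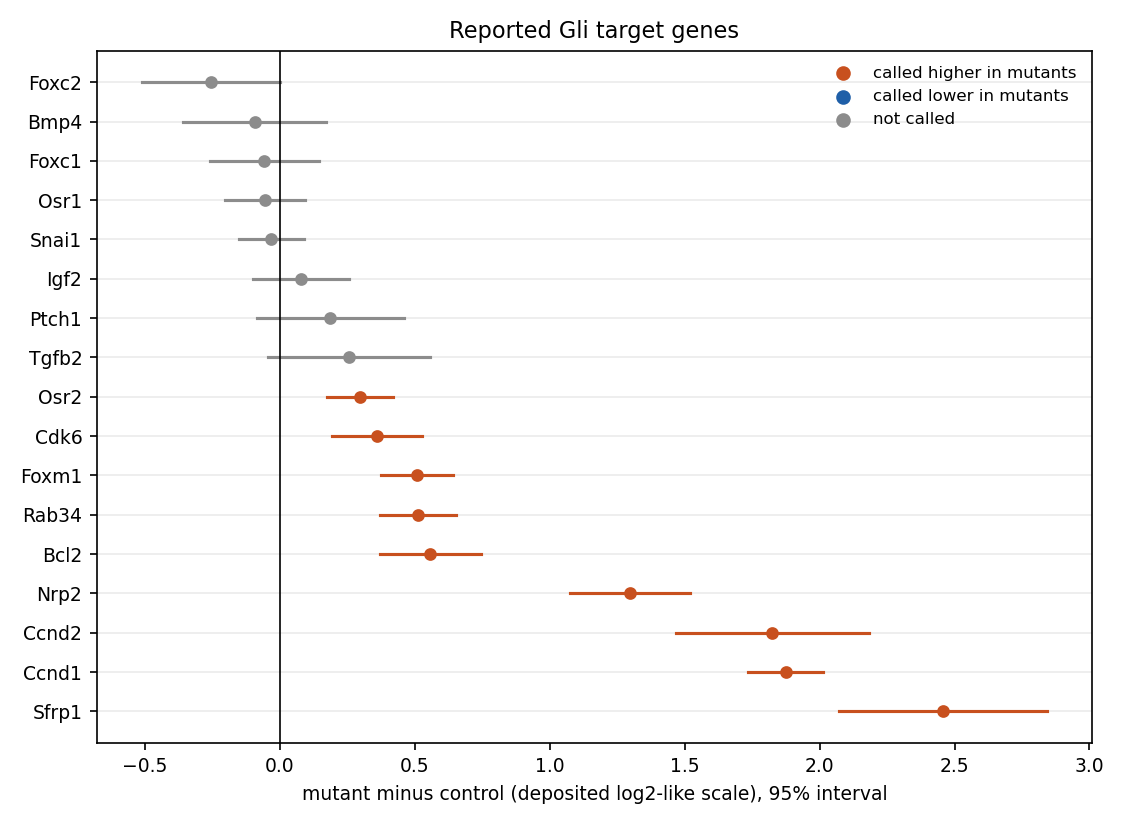
Difference, mutant minus control, of the 17 reported Gli target genes that passed the brightness filter (x axis, deposited log2-like scale), with bars for the 95% interval of the limma fit. Called genes lie to the right, from Osr2 at 0.30 to Sfrp1 at 2.46, and Ptch1 at 0.19 is not called.

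Hedgehog signalling in vertebrates runs through the primary cilium. Of 33 measured ciliary genes, 6 rose, 6 fell and 21 were not called, with a median of 0.04. The 36.4% called stood near the 39.6% of all genes tested (22% higher and 17.6% lower). Arl3, a small GTPase that unloads lipid-modified cargo in the cilium, fell by 0.86 (SE 0.196, limma adjusted p = 0.0148), and its other probe was called at -0.88. Ift20 and Dync2li1, parts of intraflagellar transport, were called at -0.65 and -0.62. Inpp5e, the phosphatase that keeps the lipid makeup of the ciliary membrane, rose from 9.66 ± 0.040 to 10.45 ± 0.039 (0.79, SE 0.051, adjusted p = 7.64e-05). Without control replicate 1, 2 or 3, the ciliary genes called lower numbered 2, 3 and 2. Without control replicate 1 the list had 7 calls in all. Of the 18420 probes tested, 4596 were called without that control, against 6596 with all arrays. The Ift20 call was lost with all probes tested (0.102) and without control replicate 1, 2 or 3 (0.101, 0.102 and 0.101), and the Arl3 call without control replicate 1 (0.0549) or 3 (0.0584).

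The cells that receive Dhh in the nerve were followed through their markers. Shares called in these lists are read against the 39.6% of all genes tested (22% higher and 17.6% lower). Of 10 measured perineurial genes, 2 rose, 3 fell and 5 were not called (50% called), with a median of -0.15. Krt23, a keratin, rose from 8.30, at the dim end, to 12.68 and so passed the filter only through the mutant arrays. It was followed by Itgb4, an integrin chain that Schwann cells also carry, with a rise of 0.48, while the netrin G gene Ntng1 (-0.55), Msln (-0.44) and Tjp1 (-0.33) fell. The Msln call was lost with the replicate number as a block (limma adjusted p = 0.0675), with all probes tested (0.0912) and without mutant replicate 2 (0.108) or control replicate 1 (0.115) or 2 (0.117). Slc2a1, the glucose transporter that defines the perineurium, was at 12.56 ± 0.21 in controls and 12.32 ± 0.33 in mutants, and the tight junction gene Cldn1 at 11.23 ± 0.11 and 11.36 ± 0.35. Neither was called (adjusted p = 0.348 and 0.604), though Slc2a1 was called lower without mutant replicate 1, as it was with array weights. The mean signal of the list was 10.365 to 10.572 on the control arrays and 10.696 to 10.822 on the mutant arrays, and this rise of 0.30 rests on Krt23. Without Krt23, a comparison added after seeing the data, the means were 10.598 to 10.815 and 10.465 to 10.633, a difference of -0.15 with overlapping groups.

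Of 8 measured genes of endoneurial fibroblasts, 25% were called: 2 rose and 0 fell by limma (also 0 lower at an unadjusted p under 0.05), Etv1 by 0.68 and Osr2 as above, with a median of 0.24. The list's mean signal was 11.023 to 11.136 on the control arrays and 11.256 to 11.385 on the mutant arrays. Pdgfra, which defines nerve fibroblasts, was at 12.18 ± 0.074 in controls and 12.45 ± 0.22 in mutants, above the controls on all mutant arrays but not called (adjusted p = 0.111). In epineurial fibroblasts 1 of 10 measured genes rose, Dpp4 (0.45), and 2 fell, Ly6c1 (-0.65) and Clec3b (-0.61), or 30% called, with a median of -0.26. At an unadjusted p under 0.05, 5 of the 10 were lower and 1 higher. The mean signal of that list was 10.566 to 10.906 on the control arrays and 10.458 to 10.556 on the mutant arrays. Without mutant replicate 1, the epineurial genes called lower numbered 5. Without mutant replicate 2, control replicate 1 or control replicate 2 only 1 was called lower. Of the 18420 probes tested, 7468 were called without mutant replicate 1 and 4596 without control replicate 1, against 6596 with all arrays. In the Schwann cell lineage list 3 of 6 genes were measured, and S100b fell by 1.19 while Sox10 and Erbb3 were not called. The Erbb3 probe was near the dim end, at 8.32 in controls and 8.37 in mutants. By the control arrays alone it would have been left out, so it says little about Erbb3. Of other cell types, endothelial and mural cells had 1 of 10 genes higher and 2 lower (30% called), macrophages 1 of 6 higher and 1 lower (33.3%), neurons and axons 1 of 4 lower (25%), and adipocytes 0 of 3 called by limma (1 lower at an unadjusted p under 0.05, and 2 called lower with the replicate number as a block). The neuronal call was Syp, a synaptic vesicle gene, at -0.35. It was lost with all probes tested (limma adjusted p = 0.094), without mutant replicate 2 (0.0862) and without control replicate 1, 2 or 3 (0.0919, 0.0889 and 0.128). How far these shifts in markers bear on the values of Smo or Shh was not tested.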

How the data were processed

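The deposited table holds 1 value per probe and array on a log2 or log2-like scale. Per the labels, in the design text of the series, the authors normalized by RMA with limma. Version 1.8.3 of lumi stands in the submitters' processing notes. How background was corrected is not stated. The 6 columns hold the same distribution, with sorted values differing by at most 0.00025, and no further normalization was applied. The design text filtered on present calls and kept 18420 of 45281 probes. Those calls were not used here, so the 18420 brightest probes by their mean over all arrays stood in for them, and 26861 were left out. The lowest mean kept was 8.34.

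Differences between the groups were fitted in R 4.3.3 by lmFit and eBayes of limma 3.58.1, as 2-sided tests with 4 residual and 2.63 prior degrees of freedom and with Benjamini-Hochberg adjustment over the probes tested. A gene is represented by its brightest kept probe. Members without a kept probe take their values from the same fit over all probes. The platform annotation gives 1 symbol for 34885 probes, several for 18 and none for 10378. Members and lists were chosen with earlier results of these data known. Named genes are all members, up to 4 called genes of largest difference per list (the 2 brightest where none was called), the 3 genes most like Dhh, Ptch1 and Gli1, and Dicer1. Genes outside this rule were chosen with their values in view. The limma fit alone was run on simulated data with known differences, to see how many were recovered and how many calls were false. Precision is limited by having 3 arrays a group. Alternatives were other brightness filters, median centring, an intensity trend, array weights, the mean of a gene's probes, the replicate number as a block, and each array left out. Same-numbered arrays of the 2 groups deviated weakly together from their group means (correlations 0.165, 0.155 and 0.224, against -0.157 to 0.028 for arrays of different number). The sample titles number the replicates but do not say that same numbers are pairs. A pairing therefore rests on the replicate numbers and this check alone. The reported calls come from the fit without pairing, and the replicate number as a block is an alternative.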

Additional observations from a re-analysis of the deposited data

How the results depend on the processing

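With all arrays in, the numbers of probes, member genes, other pathway genes, reported Gli targets and ciliary genes called stayed within 1.5 times of the reported ones, with the following exceptions. A stricter brightness filter gave 4055 probes called, 1 member gene (Smo, since Shh was no longer tested) and 6 other pathway genes. Array weights, which gave mutant replicate 1 the lowest weight, called 19 ciliary genes. Leaving out 1 array at a time, the probes called ranged from 4596 to 7468 (6596 with all arrays). Those called at least 2-fold, if the scale is log2, ranged from 789 to 948. Member genes called ranged from 1 to 2 and other pathway genes from 8 to 13. Reported Gli targets called ranged from 9 to 10 and ciliary genes from 7 to 15. With the replicate number as a block (the alternative that treats same-numbered arrays as pairs), 6287 probes, 2 member genes, 11 other pathway genes, 9 Gli targets and 12 ciliary genes were called. Besides the calls given above, the block ended those of Clec3b (limma adjusted p = 0.052), Ift122 (0.0543) and the dimmer kept Dicer1 probe (0.0529), and added Tctn3, Mfap5, Pecam1, Adgre1, Adipoq, Cidec, Ckm, Mylpf and Tnni2. It changed no other call among the genes of the lists by their brightest kept probe. The short cell type lists also moved. The number of probes called over the array shifts with the setting too, so these counts by themselves are not results about cell types or cilia. Array weights raised the genes called lower to 5 perineurial, 6 epineurial, 4 endothelial and mural, 3 adipocyte and 2 muscle genes, and those called higher to 4 endoneurial, 2 endothelial and mural and 2 macrophage genes. An intensity trend called 3 muscle genes lower, 1 epineurial gene was called lower with all probes tested, and 0 neuronal genes were called by limma with all probes tested or under the stricter filter (1 lower at an unadjusted p under 0.05 in the reported fit). No called value changed its direction under any alternative run. The causes of these shifts were not tested. Depth has no counterpart on these arrays, and for Gli1, Ihh, Hhip and the control level of Shh the low signal limits what could be seen.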
